A study of Caenorhabditis elegans with 2 samples.

Results

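Promoters of genes that open operon-like runs, called opening genes in the text and first genes in the plots, were described in a chromatin immunoprecipitation with an antibody against GFP. The regions are those whose summit, the position of highest signal, lay at most 500 bp before or 100 bp after the start of a protein-coding gene that opens a run of 2 or more coding genes on the same strand with gaps under 500 bp. Summits between head-to-head coding genes with starts under 2000 bp apart, summits within 100 bp of a tRNA, snoRNA or snRNA gene, and genes for cytosolic ribosomal proteins were left out. This rule kept 314 regions at 291 genes, of the 16958 regions that the authors deposited for both replicates pooled. The animals were young adult hermaphrodites of strain OP478, with genotype unc-119(tm4063) III and the integrated transgene wgIs478, and they were taken 64 h after starved L1 larvae were synchronized. The transgene expresses the protein of T07F8.4 with a C-terminal GFP and FLAG tag. Both samples are biological replicates of this 1 group, and whole animals were used, so cell types cannot be told apart. No untagged animals were analysed here, and the design holds no contrast between groups, so the regions are described without a test over samples.

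In C. elegans many neighbouring genes on one strand are transcribed together from a single upstream promoter as an operon. The long transcript is then cut into separate mRNAs by trans-splicing, in which a short spliced leader RNA is joined to an acceptor site just before each coding sequence. Operon genes are known to be spaced closely and to include many genes that every cell uses. The promoter of such a unit lies before its opening gene.

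Under the rule above, opening-gene promoters and other coding-gene promoters with the same filters had shares in the authors' reproducible list that could not be told apart. That list, selected with the irreproducible discovery rate, held the 621 pooled regions with the highest signal value, which the peak calling gave each region on an unstated scale. To be reproducible thus meant to pass a limit on the pooled signal value. Of the 314 regions, 8 were reproducible, or 2.55% (95% Wilson interval 1.30% to 4.95%). The share was 1.91% at coding genes in no run (22 of 1152), called unpaired genes below, and 2.47% at the second and later genes of runs (22 of 891). The difference from unpaired genes was 0.638 percentage points (95% Newcombe interval -0.942 to 3.12) and that from later genes was 0.0786 points (-1.68 to 2.62). Both intervals include 0 and also leave room for a larger share at opening genes. Among all pooled regions 3.66% were reproducible (621 of 16958), and 1.73% among the 16221 nuclear regions more than 100 bp from a tRNA, snoRNA or snRNA gene. These intervals cover counting error over regions, which are not replicates of the animals. The difference from unpaired genes depended on the rule. The intervals above hold for the rule as stated and do not cover the alternatives that follow. It was 2.22 points where gaps had to be under 200 bp, with 4.30% at opening genes (13 of 302), 2.08% at unpaired genes (32 of 1536) and 1.35% at later genes (7 of 519). It was -0.108 points where the window reached only 250 bp upstream, with 1.64% at opening genes (3 of 183). A region in several windows went to the opening gene if there was one. Where it counted for the nearest coding start only, the difference was 0.0579 points. Then 2.11% were reproducible at opening genes (6 of 284) and 2.05% at unpaired genes (24 of 1168). A single replicate list has no reproducible call, so its 621 highest regions were counted instead. In the replicate 2 list the difference was then 1.65 points, with 3.46% at opening genes (12 of 347) and 1.81% at unpaired genes. In the replicate 1 list it was 0.987 points.

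The filters decided how many strong regions were left. Of the regions at opening genes, 350 lay between head-to-head genes, and 24 of these were reproducible, or 6.86%. Head-to-head regions of unpaired genes had 38 of 429, or 8.86%, so the higher share was found at both kinds of gene. A further 8 regions at opening genes lay close to a tRNA, snoRNA or snRNA gene, of which 7 were reproducible, and 7 belonged to ribosomal protein genes, of which 2 were. At opening genes the rule therefore set aside 33 reproducible regions of 365, against 8 of the 314 that it kept. Close to a tRNA, snoRNA or snRNA gene, 23 of 40 regions of unpaired genes and 8 of 16 of later genes were reproducible. For ribosomal protein genes these counts were 2 of 15 and 0 of 6. Head-to-head regions of later genes had 4 of 102. The filters thus removed reproducible regions at unpaired and later genes too, and their loss was not particular to opening genes.

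**Figure D1:**
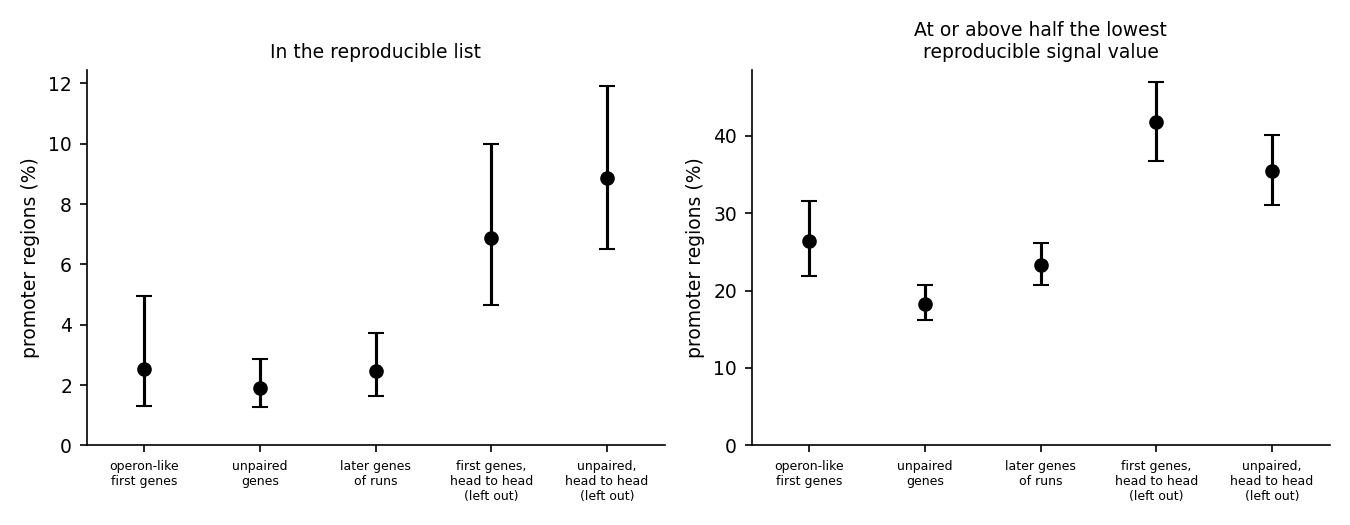
Shares of promoter regions, in %, in the reproducible list (left) and with a pooled signal value of at least 34.1 (right), for operon-like opening genes, unpaired genes, later genes of runs, and the head-to-head regions of opening and of unpaired genes, which were left out. Points are shares and bars 95% Wilson intervals; opening genes are at 2.55% on the left and 26.4% on the right, and both head-to-head classes are above the other 3 on each side.

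The sequence around 2 reproducible summits and 5 summits close below the limit is printed to show upstream sequence alone, since no annotated exon reaches into these windows. Each window holds the summit and 50 bases on each side, on build ce11 (WBcel235), read 5′ to 3′ along the strand of the opening gene. The single capital in the middle is the summit base, and longer capitals mark a 6-mer or 7-mer named further on.
plrg-1, chrV:10808053-10808153, minus strand, reproducible: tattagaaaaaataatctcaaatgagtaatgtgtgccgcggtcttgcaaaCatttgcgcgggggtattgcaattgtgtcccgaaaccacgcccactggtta
zfp-3, chrX:1446887-1446987, minus strand, reproducible: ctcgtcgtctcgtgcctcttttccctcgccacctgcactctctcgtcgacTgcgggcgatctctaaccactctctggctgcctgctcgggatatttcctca
F53E2.2, chrV:1474654-1474754, plus strand: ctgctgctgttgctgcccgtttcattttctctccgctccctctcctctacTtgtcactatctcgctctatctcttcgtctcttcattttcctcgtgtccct
Y39G8B.2, chrII:13976341-13976441, minus strand: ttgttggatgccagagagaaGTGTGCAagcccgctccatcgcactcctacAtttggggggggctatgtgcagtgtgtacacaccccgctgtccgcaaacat
ufd-2, chrII:8062403-8062503, plus strand: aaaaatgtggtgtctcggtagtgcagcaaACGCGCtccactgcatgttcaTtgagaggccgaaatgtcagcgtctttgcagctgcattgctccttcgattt
cept-2, chrV:14347407-14347507, plus strand: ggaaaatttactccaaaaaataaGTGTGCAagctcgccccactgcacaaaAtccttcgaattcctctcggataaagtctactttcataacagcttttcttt
sqd-1, chrIV:6323841-6323941, plus strand: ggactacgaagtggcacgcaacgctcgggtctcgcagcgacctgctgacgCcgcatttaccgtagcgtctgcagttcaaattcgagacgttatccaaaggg

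Of the 8 reproducible regions, 3 had their summits in intergenic sequence upstream of the opening gene. The first is at plrg-1 (WBGene00006481), which encodes a component of the spliceosome and is followed by prp-38, another splicing factor, and by secs-1. The region runs from 10807885 to 10808320 on chromosome V with its summit 191 bp upstream of the gene. Its signal value was 104.0 in the pooled list, 54.1 in replicate 1 and 49.6 in replicate 2. It ranked 230 of all pooled regions, and 256 and 266 in the separate lists, so its place was nearly the same in both replicates. It was also the only one of the 8 that stayed a reproducible region of an opening gene under all 12 alternative forms of the rule that were tried on the pooled list with the whole reproducible list.

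The zinc finger gene zfp-3 (WBGene00021047) opens a run with sedl-1, which encodes a subunit of the TRAPP complex of vesicle traffic. Its region, on chromosome X from 1446719 to 1447154 with the summit 294 bp upstream, had a pooled signal value of 74.5, with 34.7 in replicate 1 and 39.9 in replicate 2. It ranked 507 in the pooled list, 762 in replicate 1 and 444 in replicate 2. The third is at ubc-3 (WBGene00006702), a gene for a ubiquitin-conjugating enzyme followed by lsm-6, whose product belongs to the ring that binds the U6 spliceosomal RNA, and by Y71G12B.13. It lies on chromosome I from 1697798 to 1698233, with its summit 333 bp upstream. Its pooled value was 68.5, close to the lowest value of the whole reproducible list, 68.2, and it had 43.9 in replicate 1 and 25.5 in replicate 2. Replicate 2 placed it at 1401 and replicate 1 at 440, so its place rests more on replicate 1.

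At the other 5 the summit lay in or at the edge of an annotated gene. The highest of all, at kel-3 (WBGene00002185), a gene named for its kelch repeats, is on chromosome III from 13464350 to 13464785, with 123.8 in the pooled list, 73.6 in replicate 1 and 62.4 in replicate 2. It ranked 146, 107 and 132 in these lists and was the highest member in each replicate. Its summit was 252 bp upstream of kel-3 and inside the 3′ UTR of ant-1.1, which encodes a mitochondrial ADP/ATP carrier and ends only 167 bp before kel-3 on the same strand. The gene kel-3 counts as the opening gene only because cdk-5, on the other strand, reaches into the space between ant-1.1 and kel-3 and so separates them in genome order. When each strand was ordered on its own, kel-3 was no longer an opening gene.

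At 4 further regions a gene on the other strand starts close by, although the summit was not between the starts. The region at cux-7 (WBGene00000854), on chromosome III from 7520621 to 7521056, had its summit 6 bp inside the gene, in the 5′ UTR, and the start of C07H6.2 lies 164 bp upstream. It had signal values of 88.0 in the pooled list, 50.8 in replicate 1 and 35.8 in replicate 2. The gene that follows is clk-2, a homolog of the telomere maintenance and checkpoint gene TELO2. The region at Y17G7B.20 (WBGene00012471), on chromosome II from 11980118 to 11980553, had 81.3, 49.2 and 29.2 in the same order. Its summit was 492 bp upstream of that gene but 498 bp inside ash-2, a gene of the histone H3 lysine 4 methyltransferase complex, since the annotated starts of the pair overlap by 6 bp.

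The remaining pair were not nearest to the opening gene. At his-68 (WBGene00001942), a histone gene followed by the Argonaute gene alg-5, the region on chromosome I from 9988459 to 9988894 had its summit in the coding sequence of the neighbouring histone gene his-67, 86 bp past its start. It had signal values of 73.9 in the pooled list, 40.9 in replicate 1 and 42.5 in replicate 2. At F32D8.14 (WBGene00009336), on chromosome V from 10894599 to 10895034, the values were 69.8, 32.9 and 39.1, and the summit was 29 bp upstream of this gene and 17 bp inside F32D8.5, whose start is 12 bp away. Whether the opening gene or its neighbour is the one served at these places cannot be told apart in peak lists. With genes that form a head-to-head pair left out wherever the summit lies, 5 of 255 regions were reproducible, or 1.96%.

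**Figure D2:**
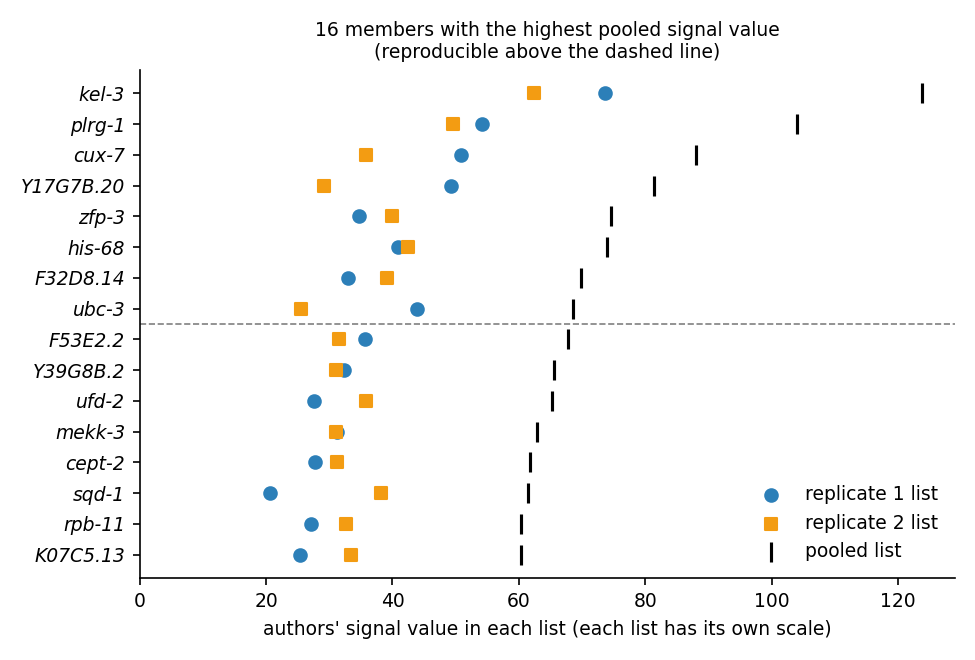
Authors' signal value of the 16 members with the highest pooled value, in the replicate 1 list (circles), the replicate 2 list (squares) and the pooled list (ticks); each list has its own scale. The 8 genes above the dashed line are reproducible, from kel-3 at 123.8 to ubc-3 at 68.5 in the pooled list, and F53E2.2 follows at 67.8 without a gap.

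No gap in the values separates the reproducible regions from the next ones. The lowest reproducible values were those of his-68 (73.9), F32D8.14 (69.8) and ubc-3 (68.5). The highest below the limit were F53E2.2 with 67.8, on chromosome V from 1474486 to 1474921, Y39G8B.2 with 65.6, on chromosome II from 13976173 to 13976608, and ufd-2 with 65.2, on chromosome II from 8062235 to 8062670. The gene ufd-2 encodes a ubiquitin chain elongation factor and is followed, 91 bp on, by pdha-1, which encodes a subunit of pyruvate dehydrogenase. It had 27.6 in replicate 1 and 35.8 in replicate 2. F53E2.2 overlaps the next gene of its run, the actin regulator unc-60 (gap of -1699 bp), so its run is one of overlapping annotations rather than of genes in a row. All of the 8 highest members below the limit had their summits in intergenic sequence, against 3 of the 8 above it.

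Each reproducible region had a summit within 100 bp in both replicate lists, which for the other members was the case at 106 of 306, or 34.6%. Over all members the share was 36.3% (114 of 314), against 26.8% at unpaired genes and 32.2% at later genes. A summit in replicate 1 only was found for 88 members, in replicate 2 only for 82, and in neither for 30, whose pooled signal values reached at most 30.3. The pooled value, which set the reproducible list, is made from both replicates, so the 8 do not test this. A summit in both lists was not required, since the region at kin-14, a later gene in the run of mstr-1, was reproducible (79.2) without one in replicate 1. Of the 8, 6 were among the 621 highest regions of replicate 1, 6 among those of replicate 2 and 4 in both, namely kel-3, plrg-1, cux-7 and his-68.

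**Figure D3:**
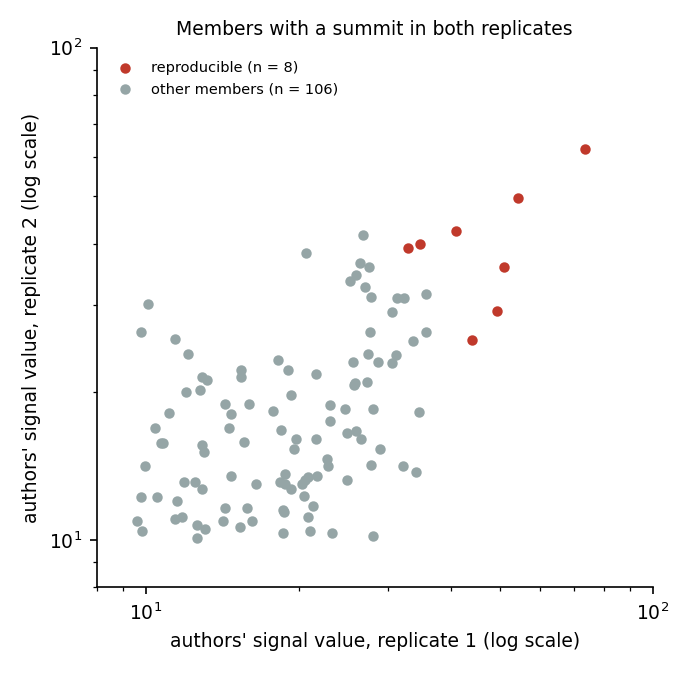
Authors' signal value in replicate 1 (x axis) and replicate 2 (y axis), both on log scales, for the 114 members with a summit in both lists; red points are the 8 reproducible regions. Each list has its own scale. The points rise together loosely, with a Spearman rho of 0.503.

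Where a member had a summit in both lists, the values of the replicates went together only in part. They ran from 9.59 to 73.6 with a median of 20.4 in replicate 1, and from 10.1 to 62.4 with a median of 16.8 in replicate 2. Spearman's rho over these 114 regions was 0.503 and Pearson's r of the log2 values 0.560, given as a description, since the points share 2 libraries and were picked for a summit in both.

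Over all kept regions, reproducible or not, opening genes had somewhat higher values than unpaired genes. The median pooled signal value of the 314 members was 25.1 (quartiles 20.3 and 34.8, range 17.0 to 123.8), with 23.1 at unpaired genes (19.5 and 30.1) and 23.0 over all nuclear regions. The quartiles at later genes, 20.5 and 33.0, were close to those of the members. A value of at least 34.1, the midpoint between 0 and the lowest reproducible value, was reached by 26.4% of members (83 of 314, 95% Wilson interval 21.9% to 31.6%). The share was 18.3% at unpaired genes (211 of 1152, 16.2% to 20.7%), 23.3% at later genes (208 of 891, 20.7% to 26.2%). Among all nuclear regions away from tRNA, snoRNA and snRNA genes 2432 of 16221 reached it (14.5% to 15.6%). This level was chosen after the values were seen, and no test was run on it. The head-to-head regions of opening genes that were left out exceeded all of these, with 41.7% (146 of 350, 36.7% to 46.9%), and those of unpaired genes had 35.4% (152 of 429, 31.1% to 40.1%).

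Summits were spread over the whole window, with no narrow place. The window itself reaches 500 bp upstream and only 100 bp downstream, so an upstream majority is set by the rule. Upstream were 80.3% of members (252 of 314), against 77.7% at unpaired and 78.1% at later genes, with a median distance at members of -191 bp (quartiles -330.8 and -38.0, negative upstream), against medians of -163.5 bp at unpaired and -136 bp at later genes. The reproducible regions had a median of -273 bp and the others -189 bp, with the 8 spread from 492 bp upstream to 6 bp downstream. In bins of 100 bp the members were spread from 37 in the farthest bin to 62 inside the gene, and no bin held more than 2 reproducible regions. By annotation 198 of the 314 summits were intergenic, 45 in coding sequence, 34 in a 5′ UTR, 19 in an intron, 14 in a non-coding exon and 4 in a 3′ UTR, a place that includes the summit at kel-3.

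**Figure D4:**
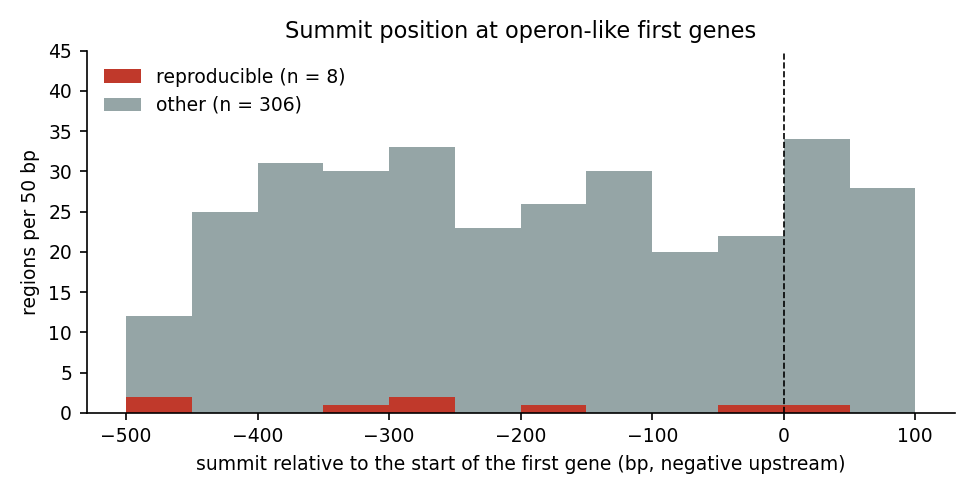
Number of member regions per 50 bp by the distance of the summit from the start of the opening gene (bp, negative upstream), with the 8 reproducible regions in red and the 306 others in grey, stacked. Summits fill the whole window without a narrow peak, and 252 of 314 are upstream of the start.

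Most runs were short and closely spaced. The opening gene had a single follower at 219 regions, 2 followers at 69 and more at 26, and the longest run held 9 genes. Reproducible were 6 of the 219, or 2.74%, 2 of the 69, or 2.90%, and none of the 26. The gap to the second gene had a median of 116.5 bp (quartiles 91 and 268.8). It was between 50 and 200 bp at 154 regions, of which 5 were reproducible, or 3.25%, and over 200 bp at 109, of which 3 were, or 2.75%. None of the 40 regions whose gene overlaps the next one, or of the 11 with a gap under 50 bp, was reproducible. Counts this small leave the shares undistinguished. By chromosome, 2 of 51 members were reproducible on I, 1 of 69 on II, 2 of 50 on III, 0 of 37 on IV, 2 of 68 on V and 1 of 39 on X.

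Annotated operons were not used, so the sequence before the second gene was read for the letters of a splice acceptor. Worm introns and trans-splice acceptors end in TTTCAG as a common form. This 6-mer stood directly before the annotated start of 18.9% of the second genes in the members' runs (55 of 291) and of 23.2% of those with a gap of 50 to 200 bp (33 of 142). The share was 14.8% where the gap was shorter or longer than that (22 of 149), 12.3% at all later genes of runs (494 of 4028) and 11.4% at all unpaired genes (1491 of 13065). It stood before 20.6% of the opening genes themselves (60 of 291), and before 462 of all 2880 opening genes, so the 6-mer did not mark second genes in particular. For the runs of the 8 reproducible regions it was found before 5 of 8 second genes and 0 of 8 opening genes. Where an annotated start is itself a trans-splice site, the transcript begins at some point upstream of it, so distances from the start are distances from the annotation.

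The gaps between opening and second gene are printed for 4 reproducible runs, ufd-2 and sqd-1, 5′ to 3′ along the genes, to show the compact spacing and how the ends differ. Capitals mark TTTCAG at the end.
plrg-1 to prp-38, chrV:10806035-10806140, minus strand: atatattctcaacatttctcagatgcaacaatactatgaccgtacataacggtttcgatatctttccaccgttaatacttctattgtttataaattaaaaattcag
cux-7 to clk-2, chrIII:7518525-7518627, minus strand: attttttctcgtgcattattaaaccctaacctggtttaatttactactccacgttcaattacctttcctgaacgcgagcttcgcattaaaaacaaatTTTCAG
Y17G7B.20 to Y17G7B.21, chrII:11977662-11977775, minus strand: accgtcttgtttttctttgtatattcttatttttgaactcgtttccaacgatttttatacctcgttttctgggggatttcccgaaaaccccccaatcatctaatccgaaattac
F32D8.14 to F32D8.4, chrV:10893561-10893649, minus strand: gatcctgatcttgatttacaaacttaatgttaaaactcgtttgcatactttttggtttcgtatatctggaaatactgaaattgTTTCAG
ufd-2 to pdha-1, chrII:8066194-8066284, plus strand: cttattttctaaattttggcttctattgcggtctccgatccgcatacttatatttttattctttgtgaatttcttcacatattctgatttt
sqd-1 to lsm-8, chrIV:6326423-6326525, plus strand: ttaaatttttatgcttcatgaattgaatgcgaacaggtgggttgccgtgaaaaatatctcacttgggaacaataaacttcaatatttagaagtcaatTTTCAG

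These gaps measured 106 bp at plrg-1, 103 bp at cux-7, 114 bp at Y17G7B.20, 89 bp at F32D8.14, 91 bp at ufd-2 and 103 bp at sqd-1. The gaps of plrg-1, Y17G7B.20 and ufd-2 do not end in TTTCAG. Which of the gaps hold a trans-splice site was not tested.

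**Figure D5:**
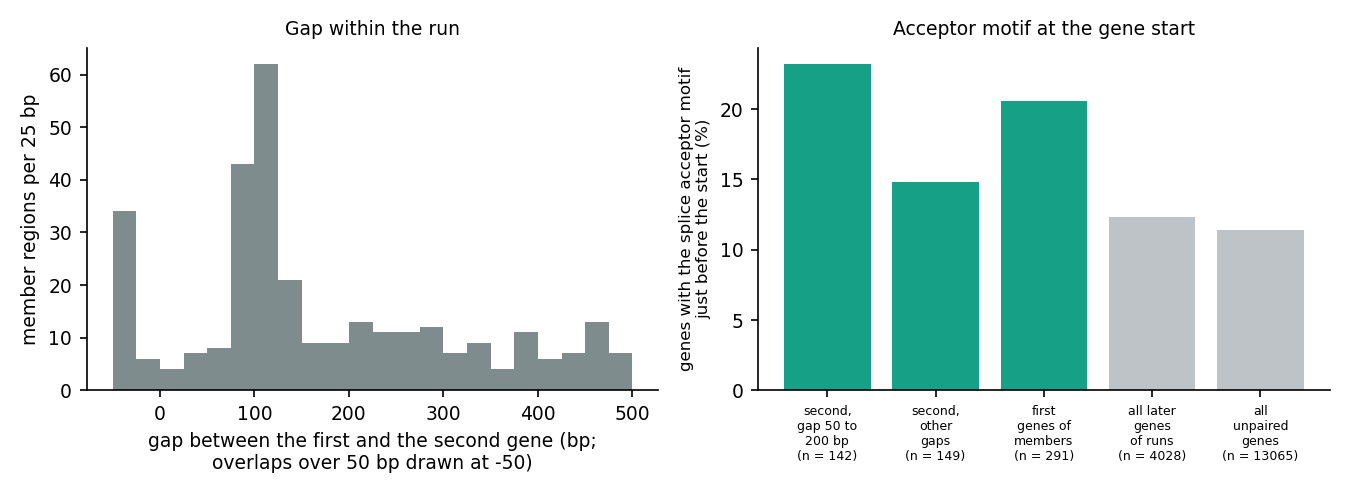
Left, number of member regions per 25 bp by the gap between the opening and the second gene (bp), with overlaps over 50 bp drawn in the lowest bin; the median gap is 116.5 bp. Right, share of genes, in %, with TTTCAG directly before the annotated start: 23.2% of second genes with a gap of 50 to 200 bp, 14.8% of other second genes, 20.6% of the members' first genes, 12.3% of all later genes and 11.4% of all unpaired genes.

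Regions were also found further along the same runs. Of the 291 runs with a member, 122 (41.9%) had a pooled region at a later gene too. In these 122 runs the highest region at the opening gene exceeded the highest at a later gene in 60, with medians of 28.4 at opening and 27.3 at later genes, so neither place had the higher values as a rule. In all 291 runs, 8 of 291 opening genes had a reproducible region (2.75%), against 10 of 429 later genes (2.33%). The runs were picked for a region at the opening gene, while only 137 of the 429 later genes had one. These shares therefore do not compare opening with later genes on equal terms. Later genes of the 122 runs held 10 reproducible regions. The highest was at eif-3.C, a gene for a translation initiation factor subunit, with 132.5 in the pooled list, 74.4 in replicate 1 and 59.6 in replicate 2, while the opening gene of its run, sys-1, had 24.0. At lem-2, a gene for a protein of the inner nuclear membrane in the run opened by rpb-11, the later gene had 73.6 and the opening gene 60.4.

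Counted by gene, a pooled region stood at 13.8% of opening genes that form no head-to-head pair and are not ribosomal (232 of 1687). It stood at 10.5% of unpaired genes (950 of 9077) and 21.6% of later genes of runs (783 of 3622) chosen in the same way. A reproducible region stood at 0.296% of these opening genes (5 of 1687), 0.198% of the unpaired (18 of 9077) and 0.580% of the later genes (21 of 3622). The window of a later gene usually reaches into the gene before it, so these shares compare different surroundings.

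The members were grouped by name into 18 lists, counting a run where its opening gene or any later gene matched. Runs with a match numbered 45 for splicing and RNA processing, 282 for chemoreceptors and 15 for nuclear pore and transport. The lists thus differ in size, and member counts do not rank them. In all, 104 members were in at least 1 list, of which 3 were reproducible, with a median signal value of 25.1, and the 210 in no list had 5 reproducible and a median of 25.2. Splicing and RNA processing had 14 members and 2 reproducible regions, those of plrg-1 through prp-38 and of ubc-3 through lsm-6, and a median of 31.7. Below the limit, this list held sqd-1 through the U6 ring gene lsm-8 (61.4, on chromosome IV from 6323673 to 6324108, 20.7 in replicate 1 and 38.2 in replicate 2) and smrd-1 through prp-3 (51.8).

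Proteasome and ubiquitin genes had 8 members and 1 reproducible region, at ubc-3, with ufd-2 next. Chromatin genes had 7 members and 1 reproducible region, at his-68, which lay over his-67. The other 15 lists had no reproducible member. Of these, vesicle traffic and V-ATPase genes had 16 members, led by cept-2 (61.7), whose run holds the V-ATPase subunit gene vha-13. RNA polymerase and general transcription genes had 11, led by rpb-11 (60.4), a gene for an RNA polymerase II subunit. Chaperones had 11 with none above 38.6, and germline and meiosis genes had 6, led by F40F11.3 through spe-36 (59.6), which had a summit in replicate 2 only.

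Among the remaining lists, the nuclear pore list was led by npp-6 (53.4) and the list of nuclear hormone receptors and homeobox genes by nhr-49 (45.3). The summits at npp-6, F40F11.3 and smrd-1 lay inside other coding genes, spd-5, mig-38 and enu-3.1 in this order. At each of them the opening gene was not the nearest coding start. DNA replication and cell cycle genes had 7 members with at most 23.8, aminoacyl-tRNA synthetases 5 with at most 23.5, and translation factors 3, led by eif-3.B (36.9). Mitochondrial ribosome genes had 5 and respiratory chain genes 2, and neither list exceeded 34.2. Chemoreceptor genes had 5 members, and the highest, at 32.8, was the promoter of the chaperone gene sti-1, whose run also holds srbc genes and which is in the chaperone list too. The name pattern of the cuticle collagens also took in dpy-26, which is no collagen, so that list held 1 collagen, dpy-17, in the run of F54D8.6 (44.6).

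The GC content within 50 bp of the summits was close to that at unpaired genes. The median was 41.6% at members (quartiles 32.7% and 47.5%) and 40.6% at unpaired genes (32.7% and 49.5%), and it was 35.6% at later genes (29.7% and 43.6%). Over the 8 reproducible members it was 48.5%. For 7 motifs both strands were searched. ACGCGC was in 8.60% of member windows (27 of 314), against 5.30% at unpaired genes, 6.06% at later genes and 3.42% of all nuclear windows of the same length. It came from an earlier analysis of these peaks, so its share is no independent result. Of the reproducible members ubc-3 held it, and the window of ufd-2 printed above shows it.

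TATAAA, the core of the TATA box, was in 8.92% of member windows, against 12.4% at unpaired genes, 14.7% at later genes and 11.0% of all. The E-box CACGTG was in 11 of 314 member windows, against 1.82% at unpaired genes, 1.01% at later genes and 2.29% of all. GATAAG, bound by GATA factors, was also in 11 of 314, against 5.56%, 3.70% and 3.78% in the same classes. GTTCGA, part of the B box inside tRNA genes, was in 2.87% of member windows, against 2.95%, 3.70% and 5.00%. The 6-mers GGCGCA and CACTCG, also from the earlier analysis, were in 5.10% and 2.87% of member windows. At unpaired genes GGCGCA was in 3.99% and CACTCG in 2.86%, and at later genes GGCGCA was in 4.94% and CACTCG in 3.82%. Among the reproducible members CACTCG was at cux-7 and ubc-3, and of the other 6-mers only ACGCGC was found in any of the 8 windows. A match describes the letters of a window and shows no bound factor, and no test was run on these shares.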

How the data were processed

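Chromatin immunoprecipitation sequencing was deposited for 2 replicates. Each region carried a signal value from the authors' peak caller and a q-value as −log10, per the file descriptions deposited with them. Not given in the sources used here were the aligner, the peak caller, the scale of the signal and the threshold of the reproducible list. The 4 lists on ce11 were used: replicate 1 (19514 regions), replicate 2 (17499), pooled (16958) and reproducible (621), the last selected by the authors with the irreproducible discovery rate. The 621 were the pooled regions of highest signal value, so both measures are one. The 4 lists on ce10 were not used, and no coordinate was converted. The lists hold no read counts, so depth is unknown.

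Starts and gene types came from Ensembl release 115 (WBcel235), sequence from the RefSeq copy of that assembly. Coding genes were ordered by position with both strands together. A region in several windows went to the opening gene, if any, and otherwise to the nearest start. Levels of signal were compared within a list only, and replicate lists only by rank or correlation. Shares have 95% Wilson intervals. No test over samples was possible with 1 group. The members and lists were chosen with earlier results of these data known. Named were the reproducible members (at most 25), the 3 on each side of the limit and up to 4 reproducible members of each list. All other genes in the text were picked with their values in view. The rule was tested on simulated data. Python 3.11.15, pandas 2.3.3, numpy 2.4.6 and scipy 1.17.1 were used.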

Additional observations from a re-analysis of the deposited data

How the results depend on the processing

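In all, 151 values were computed under alternatives for 11 results; 106 moved by less than the spread and 45 by more. The difference in reproducible share from unpaired genes, 0.638 points, ran from -0.108 (window of 250 bp) to 2.22 (gaps under 200 bp), so its direction was not fixed. In the lists of single replicates, with the 621 highest regions of each counted in place of the reproducible ones, it was 0.987 to 1.65 points. With gaps under 200 bp, the median signal value was 26.9 at members and 87.9 at reproducible members, whose median distance was -191 bp and median GC 46.5%, and 1.35% of later-gene regions were reproducible. With a window of 250 bp there were 183 members with a median of 24.4, reproducible members had 88.0, -29 bp and 44.6% GC, and the others lay at -74 bp. With 1000 bp there were 562 members with a median of 24.3, reproducible members lay at -492 bp with 46.5% GC and the others at -403 bp. With any transcript start the members' median was 24.6 and the reproducible members lay at -221.5 bp. Without the head-to-head filter there were 647 members with a median of 28.0, reproducible members at -195 bp with 52.5% GC, and 3.40% of unpaired regions were reproducible. With regions beside small RNA genes kept, the medians were 25.4 and, at reproducible members, 92.5 with 46.5% GC, and 3.78% of unpaired regions were reproducible. Keeping ribosomal protein genes gave 50% GC at reproducible members, and using the nearest start only gave a members' median of 24.6. Alternatives added after seeing the data gave 24.6 and 50.5% GC without genes in head-to-head pairs, and 50.5% GC with opening genes that hold in both orders. With the reproducible list limited to the regions above its median, 0.637% of members, 0.434% of unpaired and 0.561% of later-gene regions were in it, and those members had 113.9, -221.5 bp and 45.0% GC. With 100 bp on each side, GC at reproducible members was 41.0%. In the lists of single replicates, each on its own scale, the members' median was 14.2 to 14.4. Members among the 621 highest regions had 40.7 to 50.8, at -289 to -231 bp, with the others at -217 to -189 bp. The cause of these shifts was not tested. No paired analysis was possible because there was 1 group. With 8 reproducible members, shares and medians over them are imprecise, and the lists give no read depth.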

Other observations

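The 7-mer GTGTGCA, picked from all 7-mers after the windows were seen, was within 50 bp of the summit at 6 of the 83 members with a signal value of at least 34.1, or 7.23%. It was in 1.30% of the other members (3 of 231), 1.56% of windows at unpaired genes, 1.35% at later genes and 1.57% of all nuclear windows. The 6 were ubc-3, Y39G8B.2, cept-2, pqn-53, C34B4.2 and seip-1, each with a summit in both replicates. As it was chosen on these windows, it has no test here.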
